A study of Danio rerio with 48 samples.

Results

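Cytokine, chemokine and cytokine receptor genes were followed through chronic low light (CLL) exposure of the adult zebrafish retina. Members were taken by gene symbol alone: interleukins and their receptors, CC and CXC chemokines and their receptors, tumor necrosis factor (TNF) ligands and receptors, and transforming growth factor beta (TGF-beta) ligands and receptors. The symbols matched 121 of 15245 listed genes. By role these were 34 chemokines, 10 chemokine receptors, 20 interleukins, 23 interleukin receptors and relatives, 11 TNF ligands, 8 TNF receptors, 7 TNF-induced proteins, 3 TGF-beta ligands and 5 TGF-beta receptors and relatives. The symbol rule also took genes that are neither ligand nor receptor. These were the synaptic adhesion genes il1rapl1a, il1rapl1b and il1rapl2, tgfbrap1, a receptor-associated protein, and the tnfaip genes. The tnfaip genes are called TNF-induced proteins here by symbol alone, and their induction by TNF was not tested. Only 51 members reached a value of 5 in at least 6 libraries and were tested, against 11395 of all genes. Of the 70 members that were not tested, 43 never reached 5 in any library and 9 were at 0 in every library.

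All fish were albino adults aged 6 to 9 months, and every fish, controls included, spent 24 h in the dark first. Fish of the 0 h group were taken at the end of the dark period, and the others after 24, 36 or 72 h (hpl) or 5, 10, 14 or 28 days (dpl) of continuous light of about 5000 lux. Each of the 8 time-points had 6 libraries, each from the left retina of a separate animal and read by 3′ mRNA-seq, in 2 library sets of 3. None of these groups was kept in the dark or in the normal light cycle for the same period, so time in light and time since the start cannot be told apart, and 36 hpl was the only time-point that was not a whole number of days after light onset. Values are pseudocounts, which are read counts that the authors had adjusted to a common library size.

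Chemokines are small secreted proteins that guide cells through G protein-coupled receptors, with cxcl12 acting on cxcr4 receptors. Most interleukin receptors signal through JAK kinases and STAT factors, TNF receptors act through adaptor proteins on NF-kB or on cell death, and TGF-beta receptors act through SMAD proteins. In the retina, microglia, Müller glia, pigment epithelium and dying photoreceptors are all known sources or targets of such signals. In whole-retina RNA, fewer cells of a type and less RNA per cell cannot be told apart.

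The tissue labels were checked against markers. Rod and cone genes were present in all libraries, and 3 to 4 of 6 were lower than 0 h at each light time-point. The cone gene arr3a of this list was higher at 24 and 72 hpl (log2 1.57 and 1.16). It was also higher at 5, 10 and 14 dpl (1.27, 0.98 and 0.87). Microglia and macrophage markers summed to between 1272 and 2461 pseudocounts at 0 h and to between 3404 and 5700 at 10 dpl, when 9 of the 15 tested markers were higher (7 at 5 dpl, 1 at 24 hpl, none lower at any time-point). Of the 4 tested markers of all white blood cells, 3 were higher at 5 dpl and 4 at 10 dpl. Pigment epithelium, which the dissection can carry along, had 2 to 4 of its 6 markers higher at each light time-point, with summed levels of 3589 to 7679 at 0 h and 5105 to 23540 at 72 hpl. The T and NK cell markers had 2 of 8 genes in the test and neither was called. The B cell gene cd79a, 1 of 2 tested, was higher at 72 hpl, 5 dpl and 28 dpl (log2 1.91, 2.27 and 1.69). Of 4 ocular surface markers, krt4 was higher at 36 and 72 hpl (1.53 and 1.95) and krt5 at 72 hpl (1.61). Of 6 tested Müller glia markers, gfap was lower at 24 hpl and 28 dpl, rlbp1a lower at 72 hpl and glula higher at 24 hpl. Endothelial and red blood cell markers were not called. These lists hold 2 members, cxcr3.1 (white blood cells) and il2rb (T and NK cells), neither of which was tested. Libraries 72 hpl replicate 1, 24 hpl replicate 1 and 72 hpl replicates 3 and 4 lay farthest from the other libraries of their set and time-point. In 72 hpl replicate 1, of set 1, 67 of the 121 members were at 0. The other libraries of set 1 had 28 to 61 members at 0 and those of set 2 had 20 to 55. Libraries of set 2 at 1 time-point could share this number, as with 24 in each of 24 hpl replicates 4, 5 and 6. In set 1, 0 h replicate 2 (28) and 28 dpl replicate 2 (30) also held the number of their time-point's set 2 libraries. In set 2, 72 hpl replicate 6 (46) and 14 dpl replicate 5 (55) differed from the other set 2 libraries of their time-point. The part of the authors' adjustment in values at or near 0 was not tested.

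**Figure D1:**
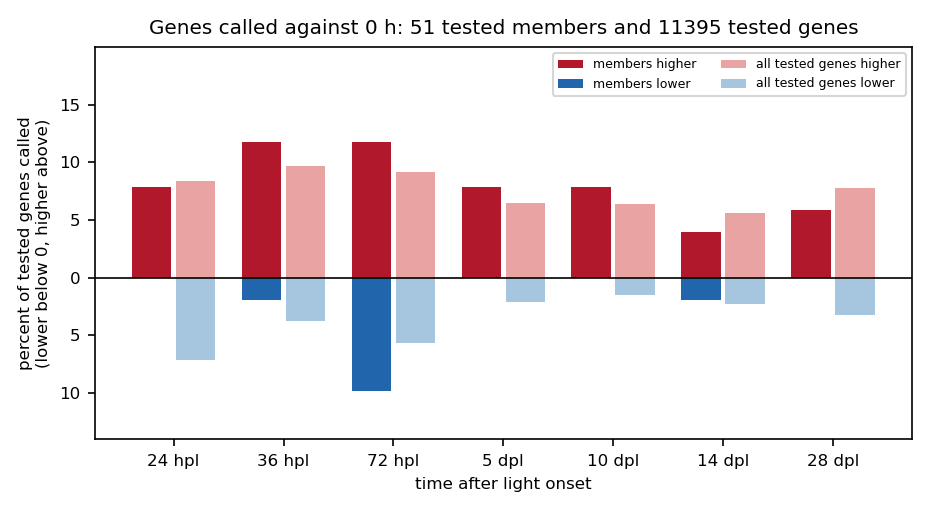
Percent of tested genes called against 0 h (limma, adjusted p under 0.05) at each light time-point, for the 51 tested members (dark bars) and for all 11395 tested genes (pale bars), with higher calls above 0 and lower calls below it. The members' share ran from 3.92% to 11.8% for higher calls, near the share of all genes, and only at 72 hpl did lower calls reach 9.8%.

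The share of members called was near that of all genes at most time-points. At 24 hpl, 4 members were higher and 0 lower than 0 h (limma, adjusted p under 0.05 over all tested genes), against 8.37% and 7.14% of all genes, and 8 had an unadjusted p under 0.05. At 36 hpl, 6 were higher and 1 lower, against 9.66% and 3.8%. At 72 hpl, 6 were higher and 5 lower, against 9.2% and 5.7%, which was the most members called at any time-point. Later the calls became fewer, with 4 higher and 0 lower at 5 dpl against 6.49% and 2.09%, and 4 higher and 0 lower at 10 dpl against 6.41% and 1.51%. At 14 dpl 2 were higher and 1 lower, against 5.59% and 2.31%, and at 28 dpl 3 were higher and 0 lower, against 7.74% and 3.26%. The median log2 fold change of the members lay between -0.05 (28 dpl) and 0.31 (10 dpl), and that of all genes between -0.07 (24 hpl) and 0.16 (10 dpl). Median-of-ratios rescaling lowered the median of all genes by 0.15 at 36 hpl, 0.15 at 10 dpl and 0.10 at 5 dpl. Under it 6 calls were lost, those of il10rb and cxcr4b at 5 dpl, tnfrsf1a and il15 at 36 hpl, ccl34b.1 at 72 hpl and il10rb at 14 dpl (adjusted p 0.0521 to 0.0938, limma). Their log2 values moved little, as for cxcr4b (1.86 against 1.94) and il15 (1.11 against 1.27). It also made 2 calls, of ccl38a.4 at 28 dpl and tnfaip8l3 at 36 hpl (adjusted p = 0.0482 and 0.041, limma).

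The counts moved with single libraries at several time-points. Without 24 hpl replicate 1, 2 members were called at 24 hpl. Without 0 h replicate 2 or 36 hpl replicate 2, 4 were called at 36 hpl. At 72 hpl, 6 were called without 0 h replicate 2 and 6 without 72 hpl replicate 1, the latter with 6 higher and 0 lower, and 7 without 0 h replicate 3 or either 0 h library without a number. Without 5 dpl replicate 4, 2 were called at 5 dpl. At 14 dpl, 5 were called without 0 h replicate 6 or 72 hpl replicate 4, and at 28 dpl, 5 without 28 dpl replicate 6. With the 4 farthest libraries left out, a choice made after the values had been seen, 2 members were called at 24 hpl, 4 at 72 hpl (4 higher, 0 lower) and 5 at 14 dpl. That fit kept only replicates 2, 5 and 6 of 72 hpl, so a call there could also be lost through the smaller group. The calls lost were those of ccl25b and ccl27a at 24 hpl (adjusted p = 0.0645 and 0.0636, limma) and, among the 72 hpl calls, those of tnfrsf1a, tnfrsf9a and all 5 lower members (adjusted p 0.0727 to 0.205). The fold changes of 3 of these were no smaller than before, at log2 1.59 for ccl27a, 1.46 for tnfrsf9a and -2.22 for ccl38a.4.

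**Figure D2:**
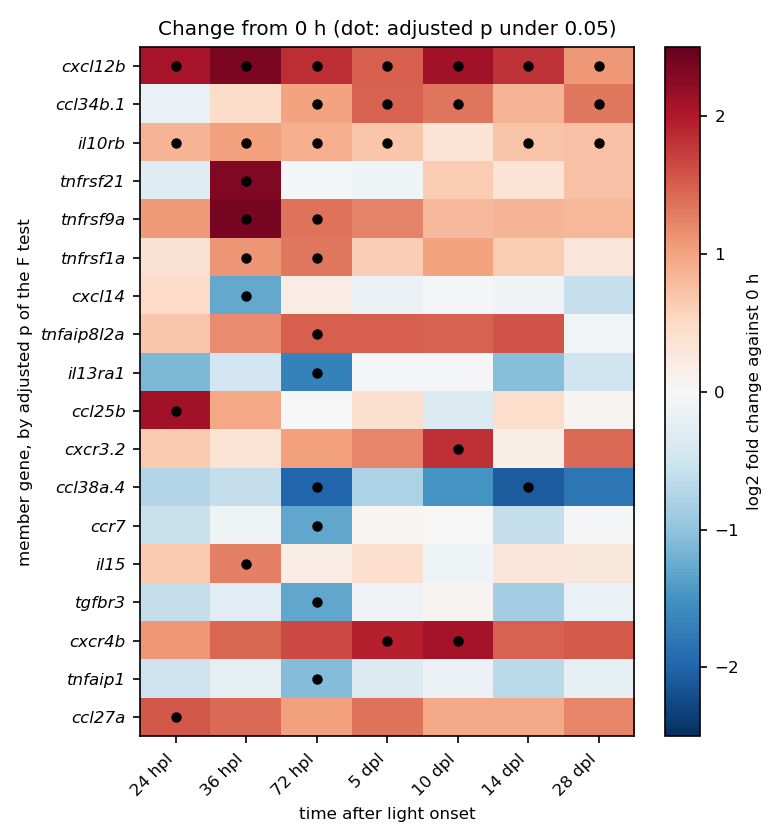
Log2 fold change against 0 h (colour, from log2(value + 1)) of the 18 members called at 1 or more of the 7 light time-points, ordered by the adjusted p of the F test over time-points, where a black dot marks an adjusted p under 0.05 (limma). cxcl12b carries a dot at all 7 time-points and il10rb at all but 10 dpl, and the blue cells with dots gather at 72 hpl.

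Over the whole time-course 15 of the 51 members, or 29.4%, varied between the 8 time-points by limma's F test, against 32.3% of all genes. These were cxcl12b, ccl34b.1, il10rb, tnfrsf21, tnfrsf9a, tnfrsf1a, tnfsf10l, cxcl14, tnfaip8l2a, il13ra1, tgfb3, ccl25b, tnfaip8l3, cxcr3.2 and ccl38a.4. In the comparisons with 0 h, 18 members made 36 calls, and 17 of these calls held whichever single library was left out. No member passed the limma interaction test for a time-course that differed between the library sets (0 of 51 against 0.948% of all genes). Of the 51, 10 had an unadjusted p under 0.05.

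The chemokine gene cxcl12b was higher than 0 h at every light time-point. Its protein is a ligand of the cxcr4 receptors and guides migrating cells in zebrafish. At 0 h the lowest, median and highest of the 6 retinas were 12.05, 39.7 and 67.7, and at 24 hpl they were 66.0, 125.9 and 256.4. At 36 hpl they were 85.5, 183.2 and 210.2, and at 72 hpl 69.4, 117.3 and 186.9. In all 6 retinas at 36 and at 72 hpl the value exceeded the highest 0 h retina, and in 5 of 6 at 24 hpl.

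Later in the exposure cxcl12b had a lowest, median and highest value of 46.4, 96.3 and 139.2 at 5 dpl, while the 10 dpl retinas gave 124.9, 127.6 and 192.9. The 14 dpl retinas gave 74.6, 112.3 and 205.2, and those of 28 dpl 37.3, 68.9 and 144.1. All 6 retinas of 10 and of 14 dpl, but 4 of 6 at 5 and at 28 dpl, lay above the highest 0 h retina. On the log2(value + 1) scale the rise against 0 h was 2.07, 2.36 and 1.85 at 24, 36 and 72 hpl (SE 0.28) and 1.5, 2.11, 1.82 and 1.08 at 5, 10, 14 and 28 dpl. The adjusted p was 2.045e-07 for 24 hpl and 0.00694 for 28 dpl, the weakest of the 7 (limma). The mean was 37.3 ± 22.1 at 0 h and 169.8 ± 45.6 at 36 hpl (SD, n = 6), or 455% of 0 h, and 73.3 ± 37.5 at 28 dpl. All 7 calls held when any 1 library was left out.

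The library sets started from different levels of cxcl12b. At 0 h the 3 retinas of set 1 lay between 45.4 and 67.7 and those of set 2 between 12.05 and 34.05, without overlap. This rests on the placing of the unnumbered 0 h library of each set, at 67.7 and 12.05, and with these exchanged the sets overlap. Within set 1 alone the log2 values of the 7 time-points in order were 1.85, 1.78, 1.55, 0.98, 1.44, 1.21 and 0.54. Within set 2 they were 2.28, 2.94, 2.15, 2.01, 2.78, 2.42 and 1.62. Every value was above 0, and those of set 1 at 5 dpl (adjusted p = 0.128, limma) and 28 dpl (adjusted p = 0.406, limma) did not pass the test alone. The difference in time-course between the sets was itself tested for each member and did not pass, as given above. With 3 retinas a set at each time-point this does not show equal time-courses. The difference in level at 0 h was not tested.

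**Figure D3:**
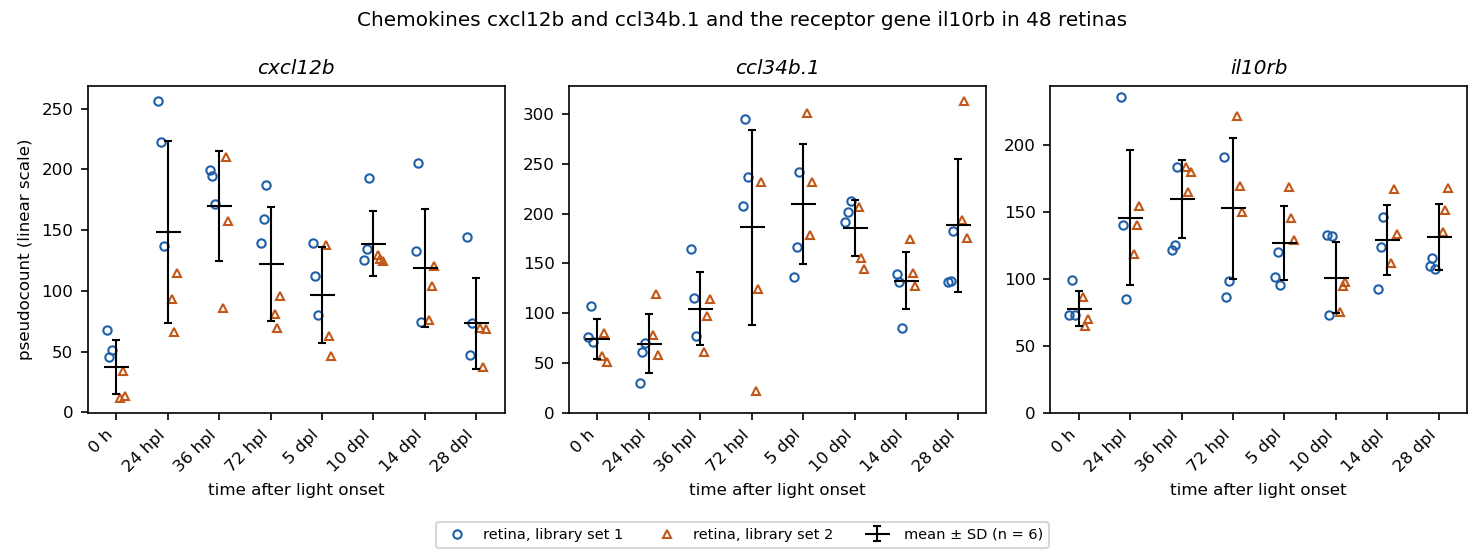
Pseudocounts (linear axis) of cxcl12b, ccl34b.1 and il10rb in each of 48 retinas, 6 at each time-point, with circles for library set 1, triangles for set 2, and the mean with its SD in black. cxcl12b is above its 0 h range in all 6 retinas at 36 hpl, 72 hpl, 10 dpl and 14 dpl, ccl34b.1 in all 6 at 5, 10 and 28 dpl, and il10rb in all 6 at 36 hpl and 28 dpl.

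ccl34b.1, a CC chemokine gene that marks one of the microglial populations of the adult zebrafish brain, rose later than cxcl12b. The 0 h retinas had a lowest, median and highest value of 50.7, 73.8 and 107.7, the 24 hpl retinas 29.9, 65.4 and 119.1, and the 36 hpl retinas 60.5, 105.4 and 164.4. At both of these early time-points the retinas overlapped those of 0 h. At 72 hpl the values were 21.8, 220.1 and 295.9, at 5 dpl 135.9, 205.6 and 301.2, and at 10 dpl 144.8, 197.0 and 213.0. From 5 to 10 dpl every retina was above all 6 of 0 h, while at 72 hpl replicate 4, at 21.8, fell below them and the other 5 lay above.

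At 14 dpl ccl34b.1 ran at 84.7, 135.3 and 174.7 and at 28 dpl at 131.1, 179.2 and 314.0. The log2 rise was 1.48 at 5 dpl (SE 0.35, adjusted p = 0.00219, limma), 1.35 at 10 dpl (adjusted p = 0.00775) and 1.32 at 28 dpl (adjusted p = 0.00721), and these 3 calls held without any 1 library. At 72 hpl the rise of 1.01 (adjusted p = 0.0395, limma) lost its call on leaving out any 1 of 9 libraries, which were both unnumbered 0 h libraries, 0 h replicates 3, 5 and 6, and 72 hpl replicates 1, 2, 3 and 6 (log2 0.81 to 1.05, adjusted p 0.0503 to 0.129). Without the low 72 hpl replicate 4 it was instead 1.55 (adjusted p = 1.32e-05), the 14 dpl value was called (adjusted p = 0.0189), and the value at 72 against 36 hpl went from 0.54 to 1.08 (adjusted p = 0.00257). With all libraries the value of 0.85 at 14 dpl (adjusted p = 0.133, limma) was not called. Within the sets the 72 hpl value was 1.53 in set 1 and 0.48 in set 2, and at 5 dpl it was 1.07 and 1.90. Of these, the 72 hpl value of set 2 did not pass the test alone (adjusted p = 0.677, limma).

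Microglial markers were also high on several of these days. Their summed level ran from 1272 to 2461 at 0 h, from 2501 to 3919 at 5 dpl and from 3404 to 5700 at 10 dpl, so that all 6 retinas of both later groups lay above 0 h, as for ccl34b.1. At 14 dpl the sums, 2579 to 4850, also lay above 0 h although ccl34b.1 was not called. At 28 dpl, at 1869 to 3457, they overlapped 0 h, while all 6 retinas of ccl34b.1 lay above it. Such sums rest mostly on the most abundant markers. Taken marker by marker, the median log2 change was 0.94 at 14 dpl and 1.16 at 28 dpl, with 3 of 15 called at each. The macrophage gene mpeg1.1 was called from 36 hpl to 10 dpl (log2 1.22, 1.44, 1.77 and 1.85). At 36 hpl ccl34b.1 had a value of 0.47 (adjusted p = 0.441, limma). Of the 15 microglial markers 2 were called then, and the median log2 change of the 15 was 0.33. The part of cell number in the ccl34b.1 rise was not tested.

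Some markers of other cell types were called higher at all 7 light time-points, as cxcl12b was. These included the neutrophil gene lyz, at log2 2.56 at 24 hpl and 1.64 at 28 dpl, while the other 2 tested neutrophil markers were not called against 0 h. They also included rpe65a (1.84 at 24 hpl) and tyrp1b (1.61), which were the only 2 of the 6 pigment epithelium markers called at 24 hpl. Of the 15 microglial markers 1 to 9 were called at each of these time-points. The part of any of these cell types in the cxcl12b values was not tested.

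Of the other chemokines, ccl25b and ccl27a were called at 24 hpl. ccl25b, whose mammalian counterpart draws lymphocytes to thymus and gut through CCR9, had a lowest, median and highest value of 13.05, 15.1 and 25.3 at 0 h and of 20.8, 75.1 and 233.8 at 24 hpl. In 5 of 6 retinas it exceeded all of 0 h, with 233.8 in replicate 1. The rise was 2.1 on the log2 scale (SE 0.63, adjusted p = 0.0150, limma) and 1.76 without replicate 1 (adjusted p = 0.0667). By 36 hpl the retinas spread from 4.18 to 135.7 and the value of 0.97 was not called. Within the sets the 24 hpl value was 1.57 (set 1) and 2.63 (set 2), and that of set 1 did not pass the test alone (adjusted p = 0.275, limma). In set 2 alone the 36 hpl value was 2.14 and was called (adjusted p = 0.0448, limma).

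ccl27a, the counterpart of a skin-homing chemokine of mammals, was low throughout. It ran at 0.029, 2.76 and 7.84 at 0 h and at 5.99, 7.23 and 13.3 at 24 hpl, so that 2 of the 6 retinas exceeded all of 0 h. The rise of 1.55 (SE 0.53, adjusted p = 0.0403, limma) was lost on leaving out any 1 of 8 libraries, namely 0 h replicates 2 and 5 and library A of set 2, and 24 hpl replicates 1, 3, 4, 5 and 6 (log2 1.20 to 1.59, adjusted p 0.0538 to 0.144). Its log2 values at the 6 later time-points lay between 0.96 and 1.42 and none was called.

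ccl38a.4, another CC chemokine gene, was the only ligand called lower after 36 hpl. The 0 h retinas ran at 1.49, 5.37 and 12.04, the 72 hpl retinas at 0.0, 0.066 and 4.13 and the 14 dpl retinas at 0.0, 0.0 and 4.38. At each of these time-points 5 of 6 retinas were below all of 0 h and the remaining retina was within it, which was replicate 3 at 72 hpl and replicate 4 at 14 dpl. The fitted fall was 1.97 at 72 hpl and 2.08 at 14 dpl on the log2(value + 1) scale (adjusted p = 0.0279 and 0.0307, limma), values that depend on the added 1 where most retinas are near 0. The 72 hpl call was lost on leaving out 72 hpl replicate 1 or any of 3 controls, namely 0 h replicates 2 and 3 and library A of set 2 (adjusted p 0.0514 to 0.081). The 14 dpl call was lost without any 1 of those 3 control libraries or without 14 dpl replicate 1, 2, 3, 5 or 6 (adjusted p 0.0571 to 0.0927).

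cxcl14, a chemokine made by many resting epithelia in mammals, dipped at 36 hpl. At 0 h it ran at 34.4, 69.2 and 88.7, at 24 hpl at 29.4, 81.7 and 315.1, and at 36 hpl at 13.9, 15.8 and 86.9. Replicates 1, 2, 3 and 5 of 36 hpl lay between 13.9 and 16.3, below all 0 h retinas, whereas replicates 4 and 6, both of set 2, were at 86.9 and 50.9. At 72 hpl it was back at 39.0, 59.2 and 273.8.

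The cxcl14 fall at 36 hpl was 1.27 on the log2 scale (SE 0.41, adjusted p = 0.0279, limma). It was lost without either unnumbered 0 h library, 0 h replicate 2, or 36 hpl replicate 1, 2, 3 or 5 (log2 -1.21 to -1.11, adjusted p 0.0561 to 0.0842). Within set 1 it was -2.13 and within set 2 -0.41, which did not pass the test alone (adjusted p = 0.836, limma). Between neighbouring time-points cxcl14 fell by 1.76 from 24 to 36 hpl (adjusted p = 0.00111, limma) and rose by 1.46 from 36 to 72 hpl (adjusted p = 0.0132, limma). The second of these was lost without 36 hpl replicate 2 or 3 or 72 hpl replicate 4 (log2 1.05 to 1.30, adjusted p 0.0518 to 0.0773).

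cxcl12a, the other zebrafish cxcl12 gene, gave no call at any time-point with all libraries. Its 0 h retinas ran at 4.70, 8.58 and 18.7. Single retinas stood far above the rest, at 123.1 (24 hpl replicate 1), 152.5 (36 hpl replicate 5), 64.1 (5 dpl replicate 1) and 202.8 (28 dpl replicate 1), while the medians of the 7 light time-points stayed between 6.54 and 19.8. The largest log2 value was 1.41 at 36 hpl (SE 0.73, adjusted p = 0.225, limma). In set 2 alone the 36 hpl value was 2.48 and was called (adjusted p = 0.0439, limma). The set 2 retinas ran at 14.9, 47.3 and 152.5 there. The remaining tested chemokines cxcl18b, ccl33.2 and ccl20a.3 were not called at any time-point, and 24 of the 34 chemokine genes, among them cxcl8b.1 and cxcl19, were too low to test. Several chemokine genes lie in families of close copies, such as ccl34b.1 with ccl34b.4 and ccl38a.4 with ccl38a.5, and how reads that match more than 1 copy were counted is not given in the sources used here, so the split between copies is uncertain.

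**Figure D4:**
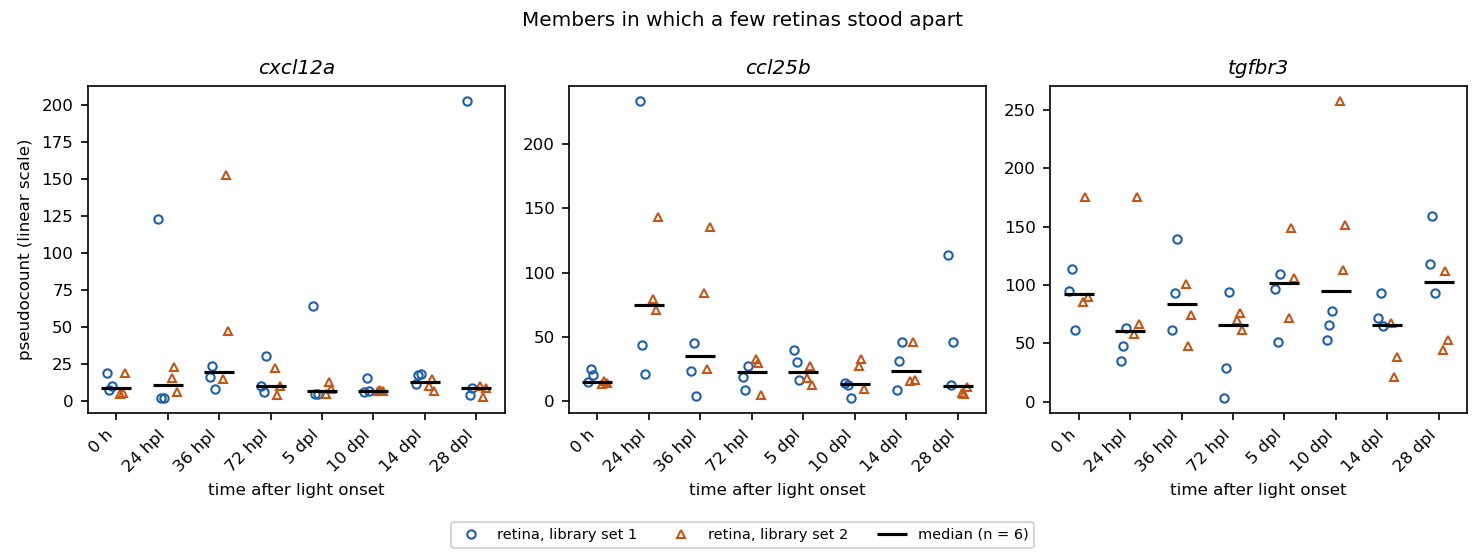
Pseudocounts (linear axis) of cxcl12a, ccl25b and tgfbr3 in each of 48 retinas, with circles for library set 1, triangles for set 2 and a black line for the median of 6. Single retinas lie far from their group, such as 202.8 for cxcl12a at 28 dpl and 3.32 for tgfbr3 at 72 hpl. The highest ccl25b retina of 24 hpl is at 233.8 and the next at 143.5.

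Among chemokine receptors, cxcr4b and cxcr3.2 were called higher and ccr7 lower. cxcr4b is the cxcl12 receptor of migrating cells and leukocytes in zebrafish, and it was low at 0 h, at 0.0, 1.99 and 4.17. It ran at 3.52, 9.23 and 12.1 at 5 dpl and at 1.93, 10.6 and 21.6 at 10 dpl, with 5 of 6 retinas above all of 0 h at each. The log2 rise was 1.94 at 5 dpl (SE 0.63, adjusted p = 0.0425, limma) and 2.08 at 10 dpl (adjusted p = 0.0288, limma). At the 5 other light time-points 4 or 5 of 6 retinas exceeded all of 0 h, and the log2 values of 1.09 to 1.66 were not called.

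Both cxcr4b calls lay near the threshold, and with 1 library left out the log2 value ran from 1.76 to 2.25 at 5 dpl and from 1.9 to 2.39 at 10 dpl. The 5 dpl call was lost without any 1 of the 0 h libraries but replicate 2 and without 5 dpl replicate 1, 2, 3, 4 or 6 (log2 1.76 to 2.02, adjusted p 0.0526 to 0.105). The 10 dpl call was lost without either unnumbered 0 h library, 0 h replicate 3, or 10 dpl replicate 1, 2 or 6 (log2 1.90 to 2.02, adjusted p 0.0546 to 0.0769). White blood cell markers were also high at 10 dpl, with summed levels of 17.1 to 42.1 at 0 h and of 51.7 to 120.9 at 10 dpl, and their part in the cxcr4b values was not tested. The second cxcr4 gene, cxcr4a, had medians of at most 0.30 at all 8 time-points and was not tested.

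cxcr3.2, a chemokine receptor of zebrafish macrophages, was called at 10 dpl. The 0 h retinas ran at 0.12, 2.47 and 6.85 and the 10 dpl retinas at 3.34, 11.9 and 13.7, with 5 of 6 above all of 0 h. The rise was 1.82 (SE 0.54, adjusted p = 0.0243, limma), and it was lost without 10 dpl replicate 4 or 6 or without either of the controls 0 h replicate 6 and library A of set 2 (log2 1.57 to 1.74, adjusted p 0.0574 to 0.0853). Within the sets it was 1.08 and 2.56. Neither value passed the test alone (adjusted p = 0.345 and 0.115, limma).

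ccr7, in mammals the receptor that takes dendritic cells and T cells to lymph nodes, ran at 42.1, 103.4 and 187.9 at 0 h and at 5.94, 42.2 and 155.4 at 72 hpl. There 3 of 6 retinas were below all of 0 h and replicate 1 was the lowest, at 5.94. The fall was 1.30 (SE 0.42, adjusted p = 0.0271, limma), and it was lost without 0 h replicate 2 or 3 (adjusted p = 0.0685 and 0.0611) and without 72 hpl replicate 1 (log2 -0.71, adjusted p = 0.186). In set 1 the 72 hpl value was -2.13 and in set 2 it was -0.47, which did not pass the test alone (adjusted p = 0.637, limma). The 0 h retinas ran from 132.4 to 187.9 in set 1 and from 42.09 to 74.45 in set 2, without overlap. At 72 hpl they ran from 5.94 to 155.4 in set 1 and from 31.5 to 44.55 in set 2. The 0 h ranges rest on the placing of the unnumbered library of each set. ccr9a was tested without a call and 6 of the 10 chemokine receptors were too low to test.

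The classical inflammatory interleukins were at or near 0. il1b and il6, the genes of the acute-phase cytokines, had highest values over all 48 retinas of 4.73 and 2.22 and medians of at most 0.40 at every time-point, and neither was tested. il10, an anti-inflammatory cytokine, ran at 0.11, 2.04 and 5.61 at 0 h and had medians between 0.065 and 3.71 in light, with no call. In 10 of the 13 untested interleukins no retina reached 5. At such values a change may not be detectable.

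il15, which in mammals sustains natural killer and memory T cells, was the only interleukin called. At 0 h it ran at 7.42, 8.79 and 13.4 and at 36 hpl at 14.9, 26.7 and 34.4, so that all 6 retinas lay above all of 0 h. The rise was 1.27 (SE 0.41, adjusted p = 0.0300, limma), or 262% of the 0 h mean. It was 1.40 in set 1 and 1.13 in set 2, and neither value passed the test alone (adjusted p = 0.0736 and 0.483, limma). The call was lost without 0 h replicate 2, 3 or 6 or 36 hpl replicate 1, 2, 4 or 5 (log2 1.17 to 1.25, adjusted p 0.0525 to 0.0757). By 72 hpl the retinas spread from 2.21 to 37.0, on both sides of the 0 h range.

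Other tested interleukins overlapped 0 h at every time-point. il34, a ligand of the csf1 receptor that keeps microglia alive, ran at 1.58, 10.7 and 18.9 at 0 h and at 8.39, 19.97 and 25.9 at 36 hpl, where its log2 value was 0.94 (SE 0.50, adjusted p = 0.236, limma). il12ba, which encodes the subunit shared by interleukins 12 and 23, ran at 11.6, 21.9 and 55.8 at 0 h, and its log2 values of -0.90 to 0.14 were not called. Neither were those of il15l, il13 and il17d.

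il10rb was called higher than 0 h at 6 of the 7 light time-points. In mammals it is the shared receptor chain for interleukins 10, 22 and 26 and the lambda interferons. At 0 h the lowest, median and highest retinas were 65.0, 72.8 and 99.3. In the early time-points they were 84.5, 140.2 and 235.4 at 24 hpl, 121.2, 172.2 and 183.4 at 36 hpl and 86.3, 159.4 and 221.6 at 72 hpl. At 36 hpl all 6 retinas exceeded 0 h, at 24 hpl 5 and at 72 hpl 4.

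From 5 dpl on, il10rb ran at 95.5, 124.7 and 168.3 (5 dpl), 72.8, 95.9 and 132.9 (10 dpl), 92.2, 128.5 and 167.3 (14 dpl) and 107.1, 125.2 and 167.4 (28 dpl). The log2 rise was 0.85, 1.02 and 0.90 at 24, 36 and 72 hpl and 0.69, 0.72 and 0.74 at 5, 14 and 28 dpl (SE 0.20, adjusted p = 0.000142 for 36 hpl, limma). Only 10 dpl, at 0.35 (adjusted p = 0.351, limma), was not called. The 5 dpl call was lost without 0 h replicate 5 or 6 or 5 dpl replicate 4 (adjusted p 0.0519 to 0.0608) and the 14 dpl call without 0 h replicate 5 (adjusted p = 0.0506), and the other 4 held without any 1 library.

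Within the library sets, il10rb rose in set 2 by 0.90, 1.25, 1.27, 0.99, 0.88 and 1.03 at the 6 called time-points, each past the test. Set 1 alone gave 0.80, 0.79, 0.54, 0.38, 0.55 and 0.45, none of which passed it. Of the ligands that this chain serves, il10 was not called, and il22 and il26 were too low to test.

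il13ra1, a receptor chain for interleukins 4 and 13, was called lower at 72 hpl. It ran at 14.2, 26.9 and 51.1 at 0 h and at 0.0, 11.2 and 21.8 at 72 hpl, with 5 of 6 retinas below all of 0 h and replicate 1 at 0. The fall was 1.69 (SE 0.48, adjusted p = 0.0113, limma) and 1.03 without that replicate (adjusted p = 0.0819). Values at 24 hpl (-1.13) and 14 dpl (-1.06) were not called, and at 5 and 10 dpl the gene was within its 0 h range in all retinas. The signalling chain il6st, the receptors il10ra, il7r, il17rd, il17ra1a and il4r.1, and il1rapl1a gave no call.

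TNF ligand genes gave no call against 0 h. tnfa, the gene of the main inflammatory TNF, had a highest value of 6.48 and medians of 1.78 or less and was not tested. tnfb ran at 1.93, 4.28 and 8.61 at 0 h and its log2 values of -1.16 to 0.37 were not called. tnfsf10l, related to the mammalian death ligand TRAIL, ran at 29.4, 64.5 and 77.9 at 0 h, at 36.5, 41.5 and 65.5 at 24 hpl, and at 65.3, 72.4 and 104.2 at 36 hpl. Its largest log2 value against 0 h was 0.55 at 5 dpl (SE 0.22, adjusted p = 0.137, limma), but the rise from 24 to 36 hpl was 0.79 (adjusted p = 0.00858, limma). The 2 lowest retinas of 36 hpl, at 65.3 and 65.5, were level with the highest of 24 hpl at 65.5, and the other 4 lay above it. Under median-of-ratios rescaling this rise was 0.58 (adjusted p = 0.0652, limma). tnfsf10, tnfsf10l3 and tnfsf12 were not called.

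Of the 6 tested TNF receptor genes, 3 rose at 36 hpl, where 9.66% of all genes were called higher. tnfrsf21, a death-domain receptor known in mammals as DR6 that acts in neurons and immune cells, had 0 h values of 3.23, 9.05 and 14.8 and 24 hpl values of 3.69, 5.81 and 11.6. At 36 hpl they were 14.9, 51.8 and 95.6. All 6 retinas of 36 hpl lay above all those of 0 h, the lowest, replicate 2, only just. At 72 hpl the gene ran at 0.31, 10.2 and 65.9, with only replicate 4 above 0 h, and at 5 dpl at 1.33, 9.53 and 13.4.

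The tnfrsf21 rise at 36 hpl was 2.31 (SE 0.54, adjusted p = 0.00176, limma), or 557% of the 0 h mean, and it was 2.34 in set 1 and 2.29 in set 2. The value of set 2 did not pass the test alone (adjusted p = 0.0563, limma). With both sets the call held without any 1 library. From 24 to 36 hpl it rose by 2.62 (adjusted p = 0.000276, limma) and from 36 to 72 hpl it fell by 2.35 (adjusted p = 0.00202, limma). No other time-point was called, and the log2 values there lay between -0.30 and 0.74.

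**Figure D5:**
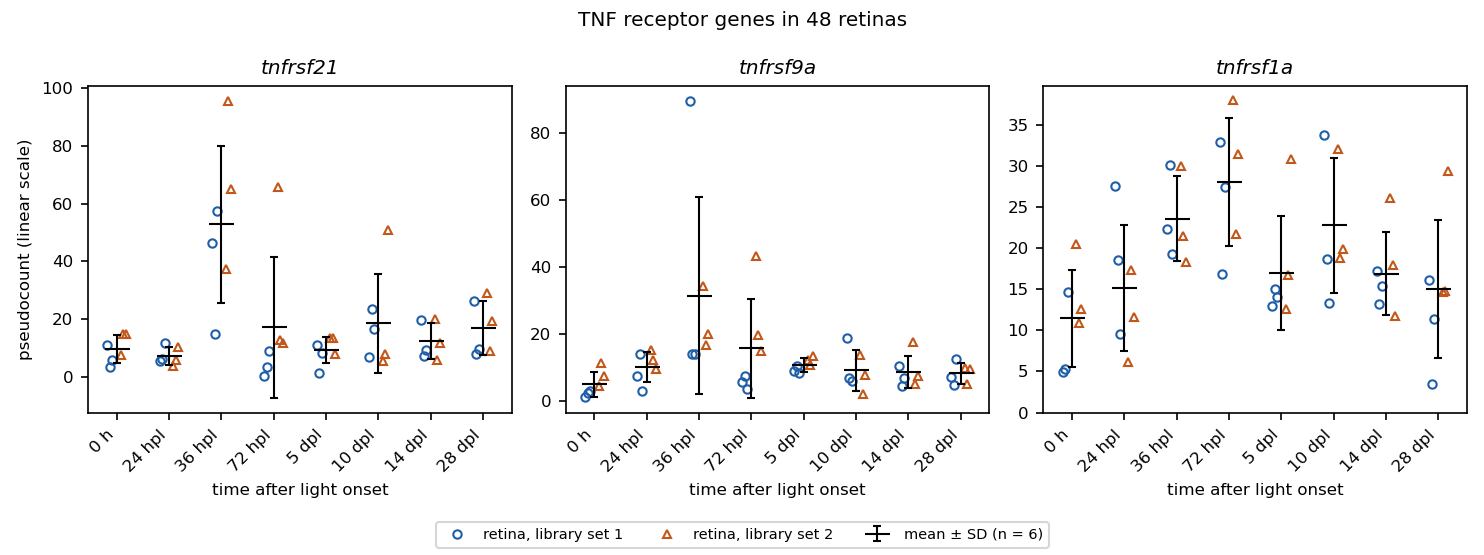
Pseudocounts (linear axis) of the TNF receptor genes tnfrsf21, tnfrsf9a and tnfrsf1a in each of 48 retinas, with circles for library set 1, triangles for set 2 and the mean with its SD in black. At 36 hpl all 6 retinas lie above every 0 h retina for tnfrsf21 and tnfrsf9a, and 4 of 6 for tnfrsf1a, and for tnfrsf1a 5 of 6 do at 72 hpl.

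tnfrsf9a, the counterpart of the T cell costimulatory receptor 4-1BB, ran at 0.96, 3.62 and 11.2 at 0 h and at 3.03, 10.7 and 15.2 at 24 hpl. It ran at 13.9, 18.2 and 89.5 at 36 hpl and at 3.57, 11.05 and 43.3 at 72 hpl. All 6 retinas at 36 hpl were above all of 0 h, and the highest, replicate 1, stood well above the other 5. The rise was 2.38 at 36 hpl (SE 0.46, adjusted p = 0.000121, limma), with 3.24 in set 1 and 1.52 in set 2, and held without any 1 library. The value of set 2 did not pass the test alone (adjusted p = 0.158, limma). At 72 hpl the rise of 1.35 (adjusted p = 0.0374, limma) was lost without either unnumbered 0 h library, 0 h replicate 2 or 3, or 72 hpl replicate 4, 5 or 6 (log2 1.03 to 1.34, adjusted p 0.057 to 0.139).

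From 24 to 36 hpl tnfrsf9a rose by 1.32 (adjusted p = 0.0329, limma), a call lost under median-of-ratios rescaling (adjusted p = 0.0845) and without 24 hpl replicate 1, 3 or 6 or 36 hpl replicate 1 or 4 (log2 0.89 to 1.31, adjusted p 0.0534 to 0.175). These comparisons of neighbouring time-points were chosen after the values had been seen. In them 3 members were higher and 1 lower at 36 than at 24 hpl, against 13.8% and 6.52% of all genes. At 72 against 36 hpl 1 was higher and 1 lower, against 3.59% and 4.88%, and without 72 hpl replicate 3 or 4 there were 4 calls, 1 higher and 3 lower, while without 36 hpl replicate 2 or 3 there was 1.

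tnfrsf1a, the main death-domain receptor for TNF, rose at 36 and 72 hpl. The 0 h retinas ran at 4.88, 11.7 and 20.6, the 36 hpl retinas at 18.4, 21.9 and 30.1 and the 72 hpl retinas at 16.9, 29.5 and 38.0, and 4 and 5 of 6 lay above all of 0 h. The log2 rise was 1.1 at 36 hpl (SE 0.34, adjusted p = 0.0207, limma) and 1.32 at 72 hpl (adjusted p = 0.0045, limma). The first was lost on leaving out 36 hpl replicate 2 or either of 2 controls, 0 h replicate 2 and library A of set 1 (log2 0.94 to 1.0, adjusted p 0.0592 to 0.0707), and the second held without any 1 library but not without the 4 farthest (log2 1.01, adjusted p = 0.123). Within the sets the 36 hpl value was 1.55 and 0.65 and the 72 hpl value 1.63 and 1.02. Both values of set 1 passed the test alone and neither of set 2 did (adjusted p = 0.559 and 0.229, limma). At 10 dpl a value of 1.01 (adjusted p = 0.0551, limma) was not called, and tnfrsf19, tnfrsfa and tnfrsf9b gave no call.

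The genes grouped by symbol as TNF-induced proteins moved in both directions at 72 hpl. tnfaip8l2a, whose mouse counterpart holds back immune cell activation, was low at 0.0, 0.026 and 2.33 at 0 h and at 0.17, 4.25 and 6.60 at 72 hpl, with 4 of 6 retinas above 0 h. Its rise of 1.48 (SE 0.53, adjusted p = 0.0495, limma) was lost in 33 of the 48 fits without 1 library, with libraries of all 8 time-points among them (log2 1.27 to 1.57, adjusted p 0.0501 to 0.127). tnfaip1, in humans an adaptor of a ubiquitin ligase, ran at 54.5, 65.5 and 99.5 at 0 h and at 4.91, 40.1 and 75.9 at 72 hpl. Its fall of 1.09 (SE 0.36, adjusted p = 0.0306, limma) was lost without 72 hpl replicate 1 (log2 -0.58, adjusted p = 0.207) or 0 h replicate 2 or 5 (adjusted p = 0.0749 and 0.0728). tnfaip8l3, a lipid transfer protein, varied by the F test (adjusted p = 0.0431, limma), with 5 of 6 retinas below all of 0 h at 36 and at 72 hpl and 4 of 6 clearly above at 14 dpl, where another was level with the highest 0 h retina at 123.6, but no single time-point was called.

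TGF-beta ligands gave no call against 0 h. tgfb3 ran at 107.8, 119.9 and 153.2 at 0 h, at 60.1, 93.9 and 116.7 at 24 hpl and at 135.0, 143.0 and 251.9 at 14 dpl, and it varied by the F test (adjusted p = 0.0305, limma). Its log2 values ran from -0.50 at 24 hpl (adjusted p = 0.170) to 0.39 at 14 dpl (adjusted p = 0.372). tgfb1a ran at 4.28, 7.38 and 15.96 at 0 h with log2 values of -0.41 to 0.71, none of them called, and tgfb2 had medians of 1.24 or less and was not tested.

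tgfbr3, or betaglycan, presents TGF-beta to its signalling receptors, and it was called lower at 72 hpl. The 0 h retinas ran at 61.3, 92.4 and 175.8 and the 72 hpl retinas at 3.32, 65.4 and 93.5, with 3 of 6 below all of 0 h. The fall was 1.31 (SE 0.46, adjusted p = 0.0455, limma). It was lost without 72 hpl replicate 1 (log2 -0.68, adjusted p = 0.282), 72 hpl replicate 2, 0 h replicates 2, 5 or 6, or 0 h library A of set 1 (adjusted p 0.0523 to 0.111). The signalling receptor tgfbr1a was tested without a call, and tgfbr1b and tgfbr2 were too low to test.

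The 5 members called lower at 72 hpl lost their calls without 1 retina. In replicate 1 of 72 hpl, ccr7, tgfbr3, tnfaip1 and il13ra1 each had their lowest value of the 6 retinas. Without it their log2 values shrank to between -1.03 and -0.58 and were not called, while ccl38a.4 lost its call at a value of -1.83 (adjusted p = 0.0657, limma), near that of -1.97 with it. Replicate 4 of the same time-point was the highest of the 6 for cxcl14 (273.8), tnfrsf21 (65.9), tnfrsf9a (43.3) and tgfb1a (26.6), and the lowest for ccl34b.1 (21.8). In that retina the 6 listed neutrophil markers summed to 293.1, against 5.85 to 50.5 at 0 h and 13.54 to 120.2 in the other retinas of 72 hpl. This sum was not split by marker. The markers of all white blood cells summed to 56.05 there, where the 6 retinas ran from 36.85 to 101.2. Its rod and cone (20270), microglial (1406) and pigment epithelium (5105) sums were the lowest of the 6. The part of any of these cell types in its values was not tested.

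Genes of the signalling pathways of cytokine receptors were listed apart from the members, and most of them were not called. Of 17 tested JAK, STAT and SOCS genes, 4, 5 and 3 were higher at 24, 36 and 72 hpl and 5, 5, 0 and 1 at 5, 10, 14 and 28 dpl, and 0 were lower at any of them. That is 0% to 29.4% of the list, against 5.59% to 9.66% of all genes called higher at these time-points. The kinase gene jak1 rose by 1.24 at 36 hpl (adjusted p = 7.43e-07, limma), stat3 by 1.12, stat2 by 1.51 and the feedback inhibitor socs3b by 1.98. The list's median log2 fold change was 0.50 at 36 hpl and 0.33 at 10 dpl, against 0.13 and 0.16 for all genes.

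Of 20 tested NF-kB and adaptor genes, 2, 4, 3, 1, 3, 0 and 2 were higher at the 7 time-points in order, and 0 were lower. The shares of 10, 20, 15, 5, 15, 0 and 10% stood against 8.37, 9.66, 9.2, 6.49, 6.41, 5.59 and 7.74% of all genes and were near them at several time-points. The inhibitor gene nfkbiaa rose by 2.05 at 36 hpl (adjusted p = 7.34e-07, limma), nfkb2 by 1.28, nfkbib by 1.08 and the adaptor gene myd88 by 1.48. Several of these encode inhibitors of the pathway, and nfkbiaa is itself a target gene of NF-kB.

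Of 17 tested TGF-beta pathway genes, a list that also holds ligand genes, 7 were higher and 1 lower at 36 hpl, where 9.66% and 3.8% of all genes were. At the other time-points 1 to 4 were higher, and the 1 of 17 at 24 hpl, 72 hpl and 5 dpl (5.88%) was below the share of all genes. The shares at 10, 14 and 28 dpl, of 17.65, 23.53 and 11.76%, were above those of all genes, of 6.41, 5.59 and 7.74%. Among the time-points other than 36 hpl only 24 hpl had a lower call, that of smad2 (log2 -0.46). The activin subunit genes inhbaa, inhbab and inhbb rose by 2.09, 1.81 and 1.94 at 36 hpl, and the inhibitors smad7, skia, skib and smad6a by 1.48, 1.39, 1.12 and 1.06. These are ligands and inhibitors of the pathway, not its activating SMADs, of which smad3a fell by 1.22 (adjusted p = 3.75e-07, limma). At 36 against 24 hpl 10 of the 17 were higher and 1 lower, against 13.8% and 6.52% of all genes. There smad2 (0.52) and smad5 (1.25) were higher and smad3a (-1.47) was lower. At 72 against 36 hpl 7 of the 17 were lower and 1 higher, against 4.88% and 3.59% of all genes. Of 13 tested cytokine and cytokine receptor genes with symbols outside the rule, mif fell by 0.91 at 24 hpl, lifrb rose by 1.93 at 36 hpl and crfb1 fell by 0.88 at 28 dpl, and the rest gave no call.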

How the data were processed

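For these 3′ mRNA-seq libraries of single retinas the authors used STAR to align reads to the zebrafish genome, HTSeq to tabulate them by gene, and edgeR for the rest. Versions, annotation and strand setting are not given in the sources used here. The deposited values are pseudocounts, a signal adjusted by the authors, in which each library sums to between 1629375 and 1634449. Depth per library is therefore unknown, and precision comes from the spread between retinas. The authors' means and their own comparisons (log2 fold changes, p-values) were not used, and 12 symbols turned into dates (0.128% of the signal) were left out.

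A gene was tested if 6 or more of the 48 libraries held a value of 5 or more. Tests used limma 3.58.1 in R 4.3.3 on log2(value + 1), with eBayes trend, terms for time-point and set (39 residual degrees of freedom) and Benjamini-Hochberg adjustment, at an adjusted p under 0.05. The fits were tested on simulated data. The median standard error over members was 0.498 (log2) in each comparison. The added 1 pulls fold changes of low genes towards 0. Replicate numbers and sets came from the labels, except that 2 libraries of 0 h had no number of their own. They are named library A of each set after a suffix in the headers of the values, which the labels attach to the opposite set. In the 46 libraries with a number, the headers with that suffix were all of set 2 and those without it all of set 1.

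The members and lists were chosen with earlier results of these data known. Members are named if they were called at any time-point, had the highest mean of their role, or were among a fixed list of cytokine genes, of which il11a, il11b and cxcl8a are not analysed here. The reference tables used carry no sequences, so none is shown.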

Additional observations from a re-analysis of the deposited data

Results flagged for a closer look

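In the 27 tested members that are named, 24 of 216 groups of 6 retinas held 1 retina that lay apart from the other 5 by Dixon's test on log2(value + 1). Chance marks about 1 in 20 groups, and this was 11.11%. Of the 24, 12 retinas were high and 12 low. 72 hpl replicate 4 stood apart for cxcl14 (273.8), tgfb1a (26.6) and ccl34b.1 (21.8), and 72 hpl replicate 1 for tgfbr3 (3.32) and tnfaip1 (4.91). ccl38a.4 was high in 72 hpl replicate 3 (4.13) and 14 dpl replicate 4 (4.38) beside retinas near 0. cxcl12a was high in 5 dpl replicate 1 (64.1), 10 dpl replicate 2 (15.5) and 28 dpl replicate 1 (202.8), and cxcl12b was low in 36 hpl replicate 4 (85.5) and high in 10 dpl replicate 3 (192.9).

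Among receptors and TNF-induced proteins, tnfrsf21 was low in 5 dpl replicate 2 (1.33), tnfrsf1a high in 5 dpl replicate 6 (30.8) and cxcr4b low in 28 dpl replicate 2 (0.36). tnfaip8l2a was high in 28 dpl replicate 6 (4.42), tnfaip1 high in 10 dpl replicate 4 (112.5) and tnfaip8l3 low in 24 hpl replicate 1 (52.8). Among ligands, il15 was low in 5 dpl replicate 6 (5.17) and 28 dpl replicate 5 (5.19), il12ba low in 5 dpl replicate 2 (14.1) and 28 dpl replicate 4 (0.29), tgfb3 low in 5 dpl replicate 5 (77.9) and ccl27a high in 24 hpl replicate 3 (13.3).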

How the results depend on the processing

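None of the 36 calls turned its direction under any setting, while values that were not called were not judged for it. Of the 36, 6 held under each of 13 settings: 5 of cxcl12b (all but 5 and 28 dpl) and that of ccl34b.1 at 5 dpl. By setting, 36 held with a pseudocount of 0.5, 30 with a pseudocount of 5, 30 without the filter on low values, 30 under median-of-ratios rescaling, 31 without the set term, 15 in set 1 alone and 16 of the 35 tested in set 2 alone (3 retinas a group). With the replicate number as a block and without the 2 unnumbered 0 h libraries, 19 held, with 2, 4, 2, 2 and 1 members called at 24 hpl, 72 hpl, 5, 10 and 14 dpl. The numbers did not pair the retinas: same-numbered retinas of other time-points deviated together with a median correlation of -0.034 over 154 pairs, against -0.037 for other numbers.

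Set 1 alone gave counts of 1, 5, 1, 2, 1 and 1 members at 24 hpl, 72 hpl, 5, 10, 14 and 28 dpl, and 6 members past the F test. Set 2 alone gave 4, 2, 1 and 5 at 36 hpl, 72 hpl, 10 and 28 dpl, and 1 in each comparison of neighbouring time-points. Without the set term 7 were called at 72 hpl, and rescaling gave 2 at 5 dpl and 2 at 36 against 24 hpl. Exchanging the sets of the 2 unnumbered 0 h libraries made 1 member differ between sets. Leaving out the 4 farthest libraries, a choice made after seeing the data, like the neighbouring comparisons, gave 2, 4 and 5 at 24 hpl, 72 hpl and 14 dpl.

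Leaving out 1 library at a time gave 2 to 5, 4 to 8 and 6 to 11 calls at 24, 36 and 72 hpl, and 2 to 4, 3 to 5, 2 to 5 and 3 to 5 at 5, 10, 14 and 28 dpl. It gave 3 to 5 at 36 against 24 hpl, 1 to 4 at 72 against 36 hpl, 10 to 16 past the F test and 0 to 1 differing between sets. Depth per library is unknown, and at values near 0 a change may not be detectable.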
